A study of Mus musculus with 9 samples.

Results

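Clear cells are the proton-secreting cells of the epididymal epithelium. The cells described here came from the corpus and the cauda, the middle and the distal segment of the mouse epididymis, and were chosen from single-cell RNA-seq barcodes by their marker genes. A barcode was kept if it held 300 to 4000 genes, at most 20000 unique molecular identifiers (UMIs, each counting 1 captured mRNA molecule) and less than 50% mitochondrial UMIs. A kept barcode became a member if at least 3 of the 6 genes Foxi1, Atp6v1g3, Stap1, Clcn5, Smbd1 and Tfcp2l1 were detected and fewer than 2 of Krt5, Krt14, Pecam1, C1qa and Lum, markers of basal, endothelial, macrophage and stromal cells. This rule found 6498 members among 28100 kept barcodes of the 2 segments (23.1%). There were 42087 kept barcodes of 44869 in the whole series. The choice used the cells' own counts, so the level of the rule genes in the members describes the choice and was not tested.

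The study profiled dissociated epididymis of untreated C57BL/6 mice (C57BL/6J in the methods of the study) in 9 libraries, namely caput, corpus and cauda at postnatal day 42 (P42) and the same segments in 2 replicates at postnatal day 56 (P56). P42 is the age of the first sperm wave and was represented by 1 pool of mice, and P56 is the adult age and was represented by 2 pools. The segments of a pool came from the same mice, so age and pool cannot be told apart, and p-values measure the spread between these 3 pools only. Throughout, the 3 libraries of a segment are given in the order P42, P56 replicate 1 and P56 replicate 2. Members numbered 1083, 1195 and 1250 in the corpus and 203, 1362 and 1405 in the cauda, with a median of 3892 to 7662 UMIs per member. Cells of the caput that met the same rule numbered 1379, 1375 and 2184 and served for comparison. Of 44631 barcode sequences, 143 occurred in more than 1 library, and 5 did so among the members.

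Clear cells acidify the lumen of the epididymal tubule, which keeps stored sperm quiescent. Their apical vacuolar-type proton ATPase (V-ATPase) is a rotary pump in which a cytosolic V1 sector hydrolyses ATP and a membrane V0 sector carries the protons. Several of its subunits have an isoform found in few tissues besides acid-secreting epithelia, and the forkhead transcription factor Foxi1 is known to be required for several of these isoforms in the mouse. Carbonic anhydrases supply protons and bicarbonate from carbon dioxide, and chloride-bicarbonate exchangers remove the bicarbonate. Clear cells also take up luminal proteins and cytoplasmic remnants of sperm by endocytosis and degrade them in lysosomes.

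Promoters of the V-ATPase isoforms limited to few tissues are shown because 3 of these subunits were among the genes with the widest separation of members from other cells. Of the 7 such genes looked up, 6 had an entry in the RefSeq promoter table (GRCm38.p6). Atp6v0d2 had no entry. The 250 bases before the start site are printed 5′ to 3′ on the strand of the gene, for the V1 subunit B1 (Atp6v1b1, chr6:83742767-83743016, plus strand), the V0 subunit a4 (Atp6v0a4, chr6:38124587-38124836, minus strand) and the V1 subunit G3 (Atp6v1g3, chr1:138273488-138273737, plus strand, a gene of the rule). Capitals mark TGTTTAC, a core sequence of forkhead factors, which was searched on both strands.
Atp6v1b1: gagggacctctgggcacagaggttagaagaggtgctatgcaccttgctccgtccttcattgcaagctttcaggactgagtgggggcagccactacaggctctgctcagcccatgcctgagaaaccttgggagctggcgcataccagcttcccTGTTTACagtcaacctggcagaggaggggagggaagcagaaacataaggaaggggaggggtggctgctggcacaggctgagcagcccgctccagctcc
Atp6v0a4: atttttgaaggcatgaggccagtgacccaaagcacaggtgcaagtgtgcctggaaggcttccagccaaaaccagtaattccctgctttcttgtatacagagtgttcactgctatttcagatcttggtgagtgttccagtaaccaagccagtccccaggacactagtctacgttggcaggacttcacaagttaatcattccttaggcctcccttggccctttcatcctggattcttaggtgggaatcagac
Atp6v1g3: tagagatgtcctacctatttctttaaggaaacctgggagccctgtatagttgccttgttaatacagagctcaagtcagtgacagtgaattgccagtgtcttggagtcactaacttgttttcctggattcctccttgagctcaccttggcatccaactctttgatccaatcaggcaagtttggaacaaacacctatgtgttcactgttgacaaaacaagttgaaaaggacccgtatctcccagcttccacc
The motif lay 98 bases before the start of Atp6v1b1. These letters were not found in the same window of Atp6v0a4, Atp6v1g3, Atp6v1c2, Atp6v1g2 or Atp6v1e2. Among all 32851 promoters of the table, 1040 (3.17%) held the motif in their 250 upstream bases.

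The label was set beside clear cell markers that the rule did not use. These were listed with earlier results of these data known, so the comparison is a description and no independent check. The members carried 857 to 1415 CPM (a gene's UMIs as parts per 1000000 of all UMIs in the summed cells) of the 8 such markers summed, against 111 to 412 CPM in the other kept cells of the same libraries. Napsa, which encodes the aspartic protease napsin A, stood at 58.3, 117 and 217 CPM in the members of the corpus and at 134, 505 and 542 CPM in those of the cauda. Other kept cells held 23.1, 8.41 and 16.5 CPM in the corpus and 30.2, 42.0 and 48.2 CPM in the cauda. Napsa was thus higher in the members of every library, with the smallest ratio in the P42 corpus. Atp6v1g3, a gene of the rule, was detected in 89.7% to 94.7% of members and in 19.0% to 32.6% of the other cells, at median depths of 3892 to 7662 and 3038 to 7638 UMIs, so that a detected UMI of a single marker did not separate the cells.

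The members were graded rather than uniform. Of the 6498, 2093 (32.2%) had 3 of the 6 markers, 1730 had 4, 1611 had 5 and 1064 had all 6. In the corpus of P56 replicate 1, Atp6v0d2, the V0 subunit d2, went from 13.2 CPM in cells with 2 markers, just outside the rule, to 47.8 CPM with 3, 136 CPM with 4, 271 CPM with 5 and 440 CPM with 6 markers. Atp6v1b1 stood at 4.30, 12.8, 46.3, 76.6 and 105 CPM in the same cells. Crisp1, a secretory product of principal cells, went from 19332 CPM with 2 markers to 6999 CPM with 6. Cells just inside the limit therefore lay nearer in these genes to the cells just outside than to the members with 6 markers, and the members are called clear-like cells here. Among cells that also passed the limit on other cell types, 3782 had 2 markers, and 813 barcodes with at least 3 markers were left out for markers of other cell types. The counts of called genes between segments, between ages within a segment, and for the cauda-to-corpus difference of members against other cells were also made with the 2675 members that had at least 5 markers, a limit added after the data were seen. The counts for the age difference between segments and for members against other cells from caput to distal segments are given for all members only.

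**Figure D1:**
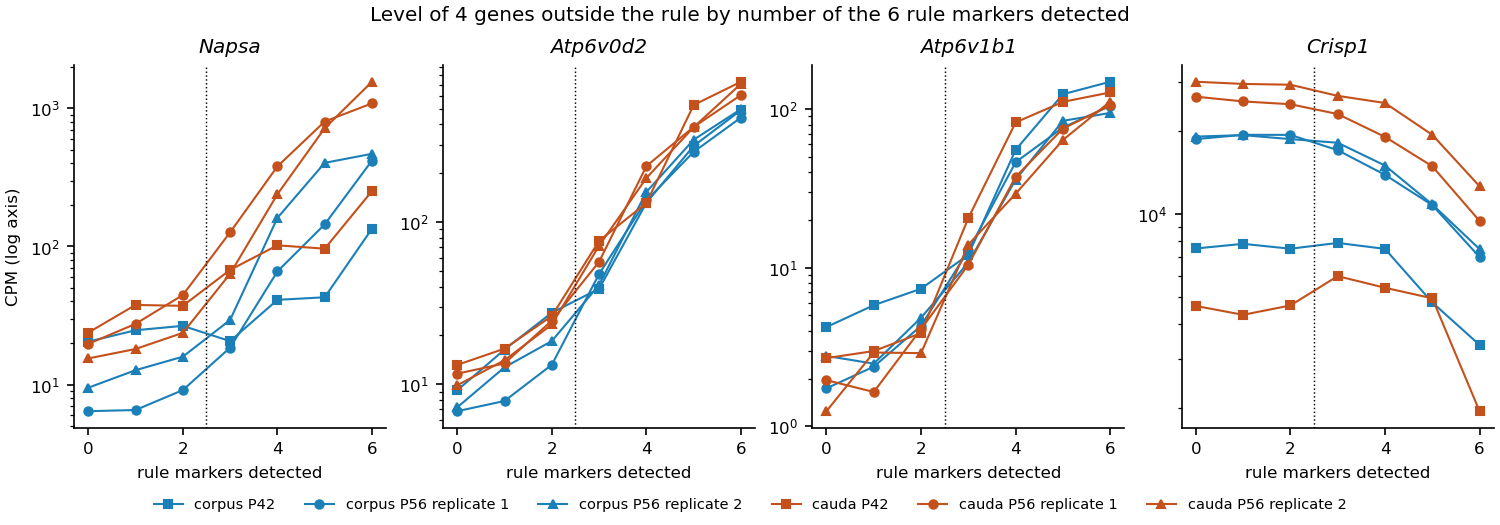
CPM on a log axis of Napsa, Atp6v0d2, Atp6v1b1 and Crisp1 against the number of rule markers detected in the summed cells of each corpus (blue) and cauda (orange) library; squares are P42, circles P56 replicate 1, triangles P56 replicate 2, and the dotted line is the limit of the rule. In all 6 libraries the 3 clear cell genes are higher with 6 markers than with 2 (Atp6v0d2 at 440 against 13.2 CPM in the corpus of P56 replicate 1) and the principal cell gene Crisp1 is lower, with uneven steps for Napsa and Crisp1 at P42.

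Transcripts of other cell types were present in the clear-like cells. The 24 principal cell markers summed to 18461, 35100 and 30892 CPM in the corpus members and to 6460, 22902 and 27714 CPM in the cauda members, and all 24 were detected in every library. Other kept cells held 22247, 47020 and 40087 CPM of them in the corpus and 5957, 30906 and 34924 CPM in the cauda. The members thus carried much of the principal cell signal of the other cells, and in the P42 cauda slightly more. The 8 fibroblast markers summed to 4409, 555 and 594 CPM in the corpus and to 21950, 1495 and 903 CPM in the cauda, again with all 8 detected. Erythrocyte markers summed to 29630, 4727 and 5173 CPM in the corpus and to 6687, 338 and 956 CPM in the cauda. The P42 cauda library stood apart, with 203 members and the highest fibroblast sum. Free RNA, mixed barcodes and the cells' own RNA cannot be told apart in these sums, and their part in the results below was not tested.

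Compared with all other kept cells of the same library, the clear-like cells carried more of the proton pump. This contrast was used by the rule and is given as a description. Of 9366 genes with at least 5 CPM over the sums, 2569 (27.4%) were above the other cells in 6 of 6 libraries, 939 (10.0%) were below in 6 of 6, and 176 (1.88%) were at least 2-fold above in 6 of 6. All 4 V-ATPase isoforms limited to few tissues that reached 5 CPM were above in 6 of 6 libraries. Atp6v0a4 was 12.5-fold higher on average (9.43 to 17.2 over the libraries), Atp6v0d2 12.5-fold (8.74 to 18.1), Atp6v1b1 11.9-fold (7.65 to 19.2) and Atp6v1c2, the V1 subunit C2, 3.26-fold (1.80 to 11.5). Of the 17 widely used subunits, 15 were above in 6 of 6 libraries, with a median log2 ratio of 0.64 against 0.10 over all 9366 genes. The catalytic subunit Atp6v1a had 868, 857 and 733 CPM in the corpus members and 1430, 1011 and 932 CPM in the cauda members, 4.64-fold above the other cells. Atp6v1g1 and Atp6v0a1 did not differ in the same direction in all libraries, at average ratios of 1.03 and 0.973.

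**Figure D2:**
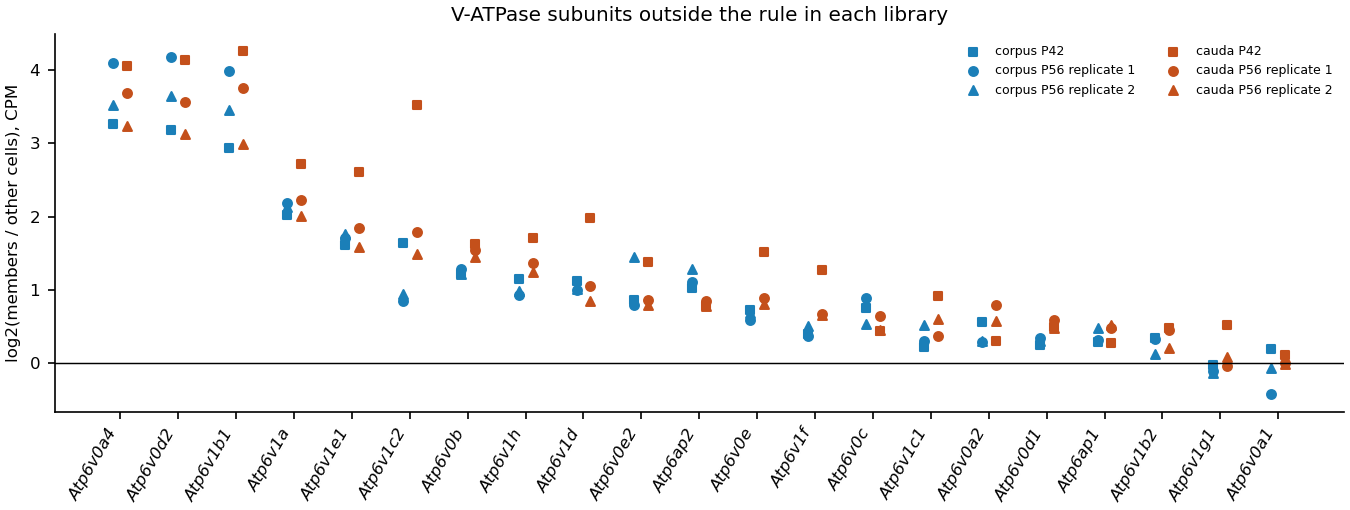
The log2 ratio of CPM in members to CPM in the other kept cells for each V-ATPase subunit outside the rule with at least 5 CPM, 1 point per library (blue corpus, orange cauda; squares P42, circles P56 replicate 1, triangles P56 replicate 2; the line marks equal levels). Atp6v0a4, Atp6v0d2 and Atp6v1b1 lead with average ratios of 12.5-fold, 12.5-fold and 11.9-fold, and Atp6v1g1 and Atp6v0a1 lie on both sides of the line.

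Ion transport, uptake and fuel genes were above the other cells in differing shares. Of 21 carbonic anhydrases, exchangers and channels at 5 CPM or more, 8 were above the other cells in 6 of 6 libraries and 4 below. Slc26a3, a chloride-bicarbonate exchanger, was 10.2-fold higher on average (5.76 to 17.3), Slc9a2, a sodium-proton exchanger, 4.57-fold, Scnn1a, the alpha subunit of the epithelial sodium channel, 3.71-fold, and Car2, cytosolic carbonic anhydrase, 2.98-fold (1.23 to 10.9). Of 19 endocytosis genes, 9 were above and 1 below, and Dab2, an adaptor for endocytosis of cargo receptors, was 5.39-fold higher (2.68 to 9.56). Of 38 lysosomal genes, 11 were above and 4 below in 6 of 6 libraries, near the share among all genes. All 18 genes of the tricarboxylic acid cycle and 15 of 18 glycolytic genes were above in 6 of 6, with median log2 ratios of 0.53 and 0.67. Cholesterol synthesis did not follow, with 2 of 19 genes above and a median near that of all genes.

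Further genes with the widest separation came from other functions. Among genes of at least 50 CPM in members, the 25 with the largest lowest ratio over the libraries spanned average ratios of 4.64-fold (Atp6v1a) to 13.7-fold (Muc20, a membrane mucin). They included Il13ra2, a decoy receptor of interleukin 13 (12.5-fold), the transcription factor Dmrt2 (11.97-fold), the organic anion transporter Slco1a5 (12.9-fold) and the protease inhibitors Serpinb6b (12.1-fold) and Serpinb9 (10.8-fold). Edn3, the ligand endothelin 3, was 6.99-fold higher (5.48 to 8.12), the narrowest range of these. The potassium channel Kcnma1 was 8.17-fold higher, and the receptor tyrosine kinase Kit, outside the 25, was 7.39-fold higher (5.40 to 9.18). Of 20 transcription factors of epithelial identity on the list, 3 were above and 3 below in 6 of 6 libraries.

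Members made up a share of the kept barcodes that was alike in 5 libraries and low in the P42 cauda. The share was 23.7%, 25.3% and 27.8% in the corpus and 4.42%, 28.0% and 28.8% in the cauda, where 4.42% had an exact 95% interval of 3.85% to 5.06% for counting error only. Cauda minus corpus came to -5.19 percentage points (SD of the 3 pool differences 12.3, exact permutation test within pools, two-sided p = 1.0). The difference was -19.3 points at P42 and 2.75 and 0.987 points in the P56 pools, and its mean turned to 1.87 points without the P42 pool. With 3 pools this test cannot give a p below 0.25. When each barcode was thinned to 1500 UMIs, the shares were 15.3%, 16.0% and 15.2% in the corpus and 3.93%, 13.97% and 14.3% in the cauda, and the P56 differences turned to -2.02 and -0.983 points. The mean thinned difference was -4.79 points (exact permutation test within pools, two-sided p = 0.25). Thinning left out 1024 barcodes of the P42 cauda and up to 361 of the other libraries. The tissue was dissociated with enzymes, and the number of cells in the tissue was not measured.

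The percentage of mitochondrial transcripts (MTs) in the clear-like cells was lower in the cauda than in the corpus of each pool. Library medians were 16.7%, 22.7% and 25.7% in the corpus and 13.5%, 20.7% and 16.8% in the cauda, and 7.83%, 8.25% and 7.22% in caput cells of the same rule. Corpus and cauda overlapped, and both lay above the caput. Cauda minus corpus averaged -4.70 points (21.7% ± 4.57 against 17.01% ± 3.58, SD, n = 3; exact permutation test within pools, two-sided p = 0.25, the smallest possible here). Without the 2 mitochondrial rRNAs the difference was -1.51 points. Members of the corpus were shallower than those of the cauda in each pool, with medians of 3892, 4238 and 5148 UMIs against 4737, 6339 and 7662. Members at or below the median depth of their library had more MTs than deeper ones in all 6 libraries, from 18.5% against 15.0% in the P42 corpus to 31.4% against 21.0% in the corpus of P56 replicate 2. The part of depth in the difference was not tested. Medians of the members exceeded those of the other cells by 2.60 to 5.10 points in the 6 libraries.

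Between the segments, no tested subunit of the proton pump passed the threshold in the clear-like cells, although the widely used subunits summed higher in the cauda of each pool. Id genes were among those that were higher in the cauda. UMIs were summed over the members of each library, in which fewer expressing cells and less RNA per cell cannot be told apart, and tested with edgeR's quasi-likelihood test, with pools as blocks and Benjamini-Hochberg adjustment over all genes. Of 15669 genes, 1183 (7.55%) were called at an adjusted p under 0.05 between cauda and corpus, 444 (2.83%) higher and 739 (4.72%) lower in the cauda. Of the 1183, 1093 (92.4%) had the same direction in the other cells of all 3 pools, which come from the same libraries, and 71 (6.00%) were at least 2-fold higher in members than in the other cells. The count was 3157 with the P56 pools only and 682 in members with at least 5 markers. It ran from 263 without the corpus of P56 replicate 1 to 2392 without the P42 cauda, and was 1901 without the P42 caput, 776 without the P42 corpus, 714 without the caput of P56 replicate 1, 328 and 378 without the cauda of P56 replicates 1 and 2, and 656 without the corpus of P56 replicate 2.

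None of the 5 tested V-ATPase isoforms limited to few tissues and none of the 17 widely used subunits was called by edgeR's quasi-likelihood test, with median log2 fold changes of 0.03 and 0.19 against -0.04 over all genes. Summed, the 17 widely used subunits had 3649, 3657 and 3649 CPM in the corpus members and 5092, 3937 and 4074 CPM in the cauda members. The sum was thus higher in the cauda of each pool, and the missing calls do not show equal levels. Atp6v1b1 had 75.6, 51.3 and 47.2 CPM in the corpus and 84.1, 48.0 and 48.1 CPM in the cauda, with a log2 fold change of 0.03 (SE 0.16). The levels of Atp6v1b1 overlapped between the segments. Scaled by the TMM factors (trimmed mean of M-values, the scaling between libraries in edgeR) of the age comparisons, they were 60.7, 57.7 and 57.5 in the corpus and 56.1, 61.6 and 59.1 in the cauda. On this scale the P42 library was the highest of the corpus by a smaller margin and the lowest of the cauda. Atp6v0a4 stood at 83.6, 66.9 and 61.0 CPM in the corpus and at 91.9, 50.8 and 55.0 CPM in the cauda (log2 fold change -0.14, SE 0.14). Atp6v0d2 had 219, 183 and 204 CPM in the corpus and 383, 264 and 295 CPM in the cauda, 2 groups that did not overlap, and missed the threshold (log2 fold change 0.62, SE 0.17, adjusted p = 0.059).

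Transport and uptake genes were called in part. Of 34 carbonic anhydrases, exchangers and channels, 5 were higher and 2 lower in the cauda. Slc26a3 was at 107, 62.1 and 60.8 CPM in the corpus and 219, 104 and 116 CPM in the cauda (log2 fold change 0.90, SE 0.14, adjusted p = 0.0057), and Car12, a membrane-bound carbonic anhydrase, was higher by 1.04 (SE 0.22, adjusted p = 0.022). Each pool had more Slc26a3 in its cauda than in its corpus, and the calls of Slc26a3 and Car12 were lost without the corpus or the cauda of P56 replicate 1, that of Car12 also without the P42 corpus or the cauda of P56 replicate 2. Of 22 endocytosis genes, 2 were higher and none lower. Dab2 had 507, 345 and 381 CPM in the corpus and 1255, 649 and 677 CPM in the cauda (log2 fold change 1.005, SE 0.18, adjusted p = 0.013). The Dab2 levels did not overlap, and the call was lost without the P42 corpus or without any of 3 P56 libraries (the corpus of replicate 1 and the cauda of either replicate). Lrpap1, a chaperone of LDL receptor family proteins, was higher by 1.53 (SE 0.15, adjusted p = 0.00063), and other cells had it at similar levels.

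On the lower side, Car4, a membrane-anchored carbonic anhydrase, had 280, 382 and 348 CPM in the corpus members against 1.73, 17.1 and 1.52 CPM in the cauda members. Other cells held 362, 547 and 475 CPM of Car4 in the corpus, more than the members, and Car4 was not called without the P42 cauda. The potassium channel Kcnj16 was at 10.6, 12.7 and 7.97 CPM in the corpus and below 1 CPM in the cauda, where each library held 1 UMI, and was likewise no higher in members than in other corpus cells. Of 42 lysosomal genes, 1 was higher and 3 lower. Npc2, a cholesterol carrier of the lysosome that principal cells also secrete, was at 2790, 5063 and 4687 CPM in the corpus and 683, 1186 and 1045 CPM in the cauda (log2 fold change -2.09, SE 0.27, adjusted p = 0.0023). Other cells carried 3440.2, 6836 and 5812 CPM of Npc2 in the corpus, again more than the members.

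Several genes on a list of BMP, TGF-beta and Id genes were higher in the cauda. Id proteins are inhibitors of basic helix-loop-helix transcription factors and respond to BMP signals. Of 17 genes, 7 were higher and 1 lower, with a median log2 fold change of 1.59 against -0.04 over all genes. The 20 listed genes summed to 685, 294 and 390 CPM in the corpus members and 3252, 2293 and 2812 CPM in the cauda members. In the other cells they summed to 851, 280 and 393 CPM and to 3085, 2576 and 3073 CPM. The difference between members and other cells was called in none of the 17. Id1 had 16.2, 12.6 and 17.9 CPM in the corpus and 223, 239 and 281 CPM in the cauda (log2 fold change 4.09, SE 0.59, adjusted p = 0.0078; not called without the corpus of P56 replicate 1). Id3 had 84.6, 46.1 and 84.0 CPM and 728, 507 and 587 CPM (log2 fold change 3.14, SE 0.39, adjusted p = 0.0028). The ranges of Id1 and Id3 lay far apart between the segments in the members, and the other cells held 18.5 to 30.5 CPM of Id1 in the corpus and 165 to 282 CPM in the cauda. Among 22 cholesterol synthesis genes, 5 were higher and none lower with a median of 1.05, and 17 were higher without the P42 cauda. Beta-defensins, secreted antimicrobial proteins of principal cells, had 2 higher and 11 lower of 24, and 9 of 24 principal cell markers were lower with none higher. Fibroblast markers had 3 of 7 higher (median log2 fold change 1.64) and smooth muscle markers 3 of 7 (median 1.29), with none lower, and their part in the change of the Id genes was not tested.

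To choose genes to name, called genes were taken that moved in the same direction in all 3 pools and had at least 2 times the other cells' mean level over the 9 libraries. That mean includes the segment in which a gene is high, so a gene can pass through that segment alone. Id4 did so, with 36.4 against 17.8 CPM over the 9 libraries but log2 ratios of members to other cells of -0.80 to -0.32 in the caput and -0.44 to 0.09 in the corpus. Counts over this selection are therefore a description of the genes named and support nothing further. This selection was made after the values were seen, because the planned condition, that the segment difference itself also exceed that of the other cells, left no gene. It held 70 genes, 43 higher and 27 lower in the cauda, of which 35 had at least 10 CPM (24 higher, 11 lower). Of the 70, 64 were also called with the P56 pools only, 50 with at least 5 markers and 53 with TMM factors set to 1. All 35 were also called with the P56 pools only and 27 of them with at least 5 markers. In none of the 35 was the difference from the other cells' own segment change called.

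Among the genes lower in the cauda, Cyp1a1 (chr9:57687928-57703824, plus strand), a xenobiotic-metabolising cytochrome P450, had 35.2, 20.2 and 17.9 CPM in the corpus and 6.94, 2.92 and 2.71 CPM in the cauda (log2 fold change -2.62, SE 0.17, adjusted p = 9.0e-05). Tmem213, a transmembrane protein, had 38.0, 39.2 and 34.6 CPM and 13.0, 9.66 and 5.76 CPM (log2 fold change -2.07, SE 0.22, adjusted p = 0.00082). Neither gene overlapped between the segments, and the other cells of corpus and cauda had at most 4.77 CPM of either. Plb1, phospholipase B1, fell by 1.68 on the log2 scale, Nupr1, a stress-responsive chromatin protein, by 1.83, and the adhesion protein Hepacam2 by 0.89. Tgm3, Svopl, Rcan2, Napepld and Ttn were lower by 0.78 to 1.13 on the log2 scale, and of these Ttn and Rcan2 were not called with TMM factors set to 1, while Napepld was not called with at least 5 markers.

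On the higher side, Adgrf1 (chr17:43270329-43324737, plus strand), an adhesion G protein-coupled receptor, had 1.52, 1.13 and 2.22 CPM in the corpus and 72.8, 17.4 and 20.2 CPM in the cauda (log2 fold change 4.13, SE 0.41, adjusted p = 0.00070). These were 8, 7 and 17 UMIs in the corpus and 84, 173 and 238 in the cauda, with 2, 0 and 0 in the caput. The mean of Adgrf1 over the 9 libraries thus came mostly from the cauda. Id4 had 12.4, 10.97 and 9.15 CPM and 195, 47.8 and 31.3 CPM (log2 fold change 2.64, SE 0.36, adjusted p = 0.0049). Both were highest in the P42 cauda, and neither overlapped between the segments. S100a1, a calcium-binding protein, had 91.0, 134 and 185 CPM in the corpus and 589, 473 and 544 CPM in the cauda (log2 fold change 1.99, SE 0.24, adjusted p = 0.0016). Other cells had 25.7 to 60.3 CPM of S100a1 in the corpus and 88.3 to 176 CPM in the cauda. Fxyd2, a regulator of the sodium pump, was higher by 2.25 (SE 0.26), the lipoxygenase Alox12 by 1.69 (SE 0.18), Dkk3 by 1.62, Bex1 by 1.28, the fucosyltransferase Fut9 by 1.27, the cytokine Il18 by 1.19 and Arhgap28 by 1.18, the last of which was not called with TMM factors set to 1. Cyp1a1, Tmem213, Plb1, Adgrf1, Id4, Fxyd2, S100a1, Alox12, Bex1 and Fut9 were called under every alternative run. Dkk3 lost its call without the replicate block, and each of the other 9 named in these 2 paragraphs did so with at least 1 library left out.

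**Figure D3:**
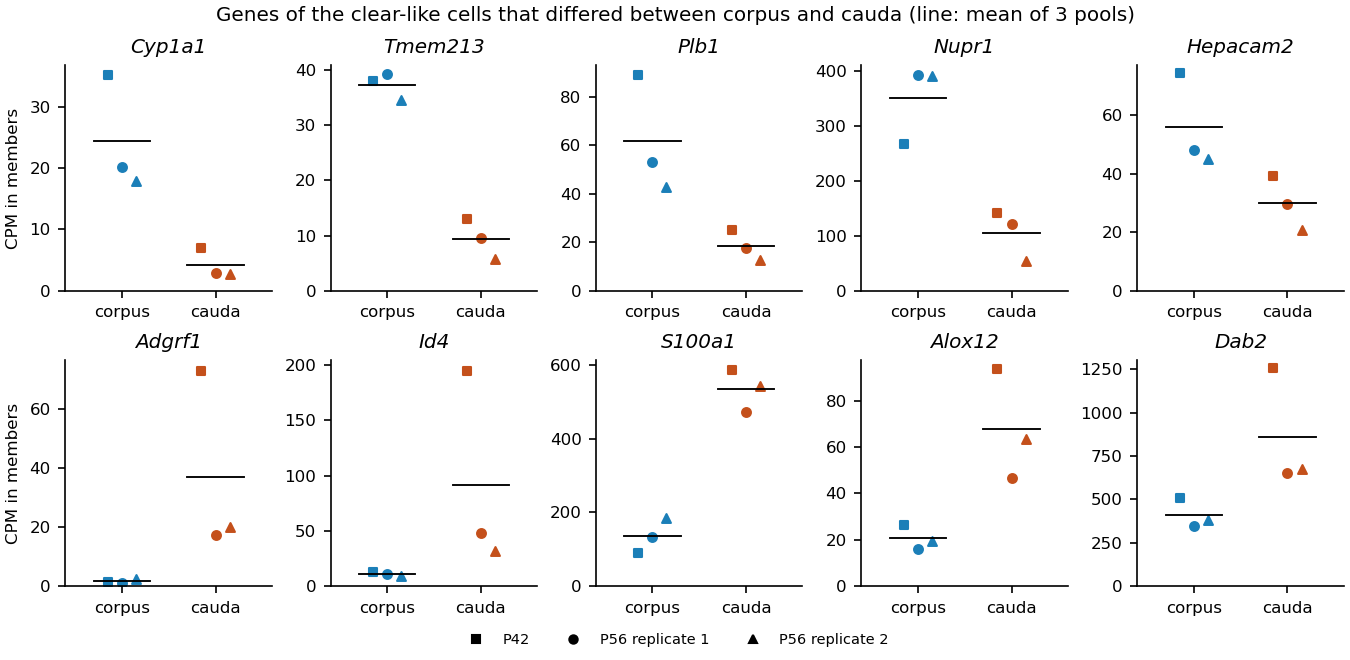
CPM in the clear-like cells of corpus (blue) and cauda (orange) for 10 called genes, 1 point per library (squares P42, circles P56 replicate 1, triangles P56 replicate 2; the line is the mean of the 3). The upper genes are lower in the cauda, such as Cyp1a1 at 2.71 to 6.94 against 17.9 to 35.2 CPM, and the lower genes are higher there, without overlap in any panel.

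A further test asked whether the cauda-to-corpus difference of the members was unlike that of the other cells in the same libraries, in an edgeR quasi-likelihood fit with the library as a block. Of 18833 genes, 17 (0.0903%) were called, 12 higher (0.0637%) and 5 lower (0.0265%), and 1102 had an unadjusted p under 0.05. DESeq2 called 57 (36 higher, 21 lower). The split depended on the libraries and cells used. With at least 5 markers 30 were called, 15 in each direction, and without the P42 corpus 20, 7 higher and 13 lower. With the P56 pools only 209 were called (114 higher, 95 lower), without the P42 cauda 98 (51 higher, 47 lower), and with the pool in place of the library as replicate block 2, Gjb1 and Pcbd1. The count was 7 without the corpus of P56 replicate 1, 9 without the corpus of P56 replicate 2, 10 without the cauda of P56 replicate 1 and 11 without the caput of P56 replicate 2.

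Car2, cytosolic carbonic anhydrase, lies at chr3:14886273-14900770 on the plus strand (GRCm38). The members had 299, 383 and 439 CPM in the corpus and 304, 348 and 353 CPM in the cauda, 2 overlapping groups. The other cells had 220, 311 and 319 CPM in the corpus and 28.0, 64.3 and 69.2 CPM in the cauda, where all 3 libraries lay below all of the corpus. The difference of the 2 segment changes was 2.23 on the log2 scale (SE 0.20, adjusted p = 0.0022). Members with at least 5 markers had 373, 431 and 583 CPM of Car2 in the corpus and 519, 591 and 621 CPM in the cauda. Their level was thus higher in the cauda of each pool. Within the cauda of P56 replicate 2, Car2 was at 59.4 CPM in cells with 2 markers, 92.6 with 3, 221 with 4, 443 with 5 and 865 CPM with 6. In the corpus of the same pool the steps were 323, 295, 423, 560 and 620 CPM.

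Other genes followed the same form, with a fall from corpus to cauda in the other cells and a smaller one or none in the members. Gjb1, a gap junction connexin, had 20.3, 15.6 and 14.9 CPM in corpus members and 28.6, 9.05 and 13.1 CPM in cauda members, against 20.0, 22.5 and 18.03 CPM and 1.77, 2.05 and 2.00 CPM in the other cells (difference 3.01, SE 0.29, adjusted p = 0.00026). Slc39a8, a zinc and manganese importer, had 15.2, 30.6 and 22.5 CPM and 10.4, 7.95 and 9.99 CPM in members, against 17.4, 36.2 and 26.6 CPM and 3.92, 1.70 and 1.82 CPM in the other cells (difference 2.33, SE 0.23, adjusted p = 0.00024). Members and other cells were thus alike in the corpus and apart in the cauda in both genes. Pcbd1, a pterin dehydratase and cofactor of HNF1, had a difference of 1.87 (SE 0.17), Srd5a1, a steroid 5-alpha-reductase, of 1.49 (SE 0.16), and Soat1, which esterifies cholesterol, of 1.31 (SE 0.18). Rhcg, an ammonia transporter, was at 10.6, 14.7 and 4.57 CPM in corpus members and at 3.47, 3.82 and 5.50 CPM in cauda members, with 0.309 to 0.413 CPM in other cauda cells (difference 2.75, SE 0.31), and was not called with at least 5 markers.

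In the opposite direction, Bhlhe40, a basic helix-loop-helix repressor, had 119, 53.2 and 67.8 CPM in corpus members and 132, 78.7 and 89.3 CPM in cauda members, while other cells went from 57.6, 21.5 and 27.0 CPM to 92.8, 50.5 and 64.0 CPM (difference -0.75, SE 0.12, adjusted p = 0.021). Nfkb2, a subunit of NF-kappaB, stayed between 28.4 and 47.5 CPM in members and was higher in other cauda cells than in other corpus cells (difference -1.14, SE 0.18, adjusted p = 0.016). Clec10a and Jchain, which are expressed by macrophages and plasma cells, were among the 17 and were not called with the P56 pools only. With TMM factors set to 1 the calls were 11 higher and 1 lower, and Nfkb2, Bhlhe40, Klk1b27, Clec10a and Ybx2 were no longer called.

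**Figure D4:**
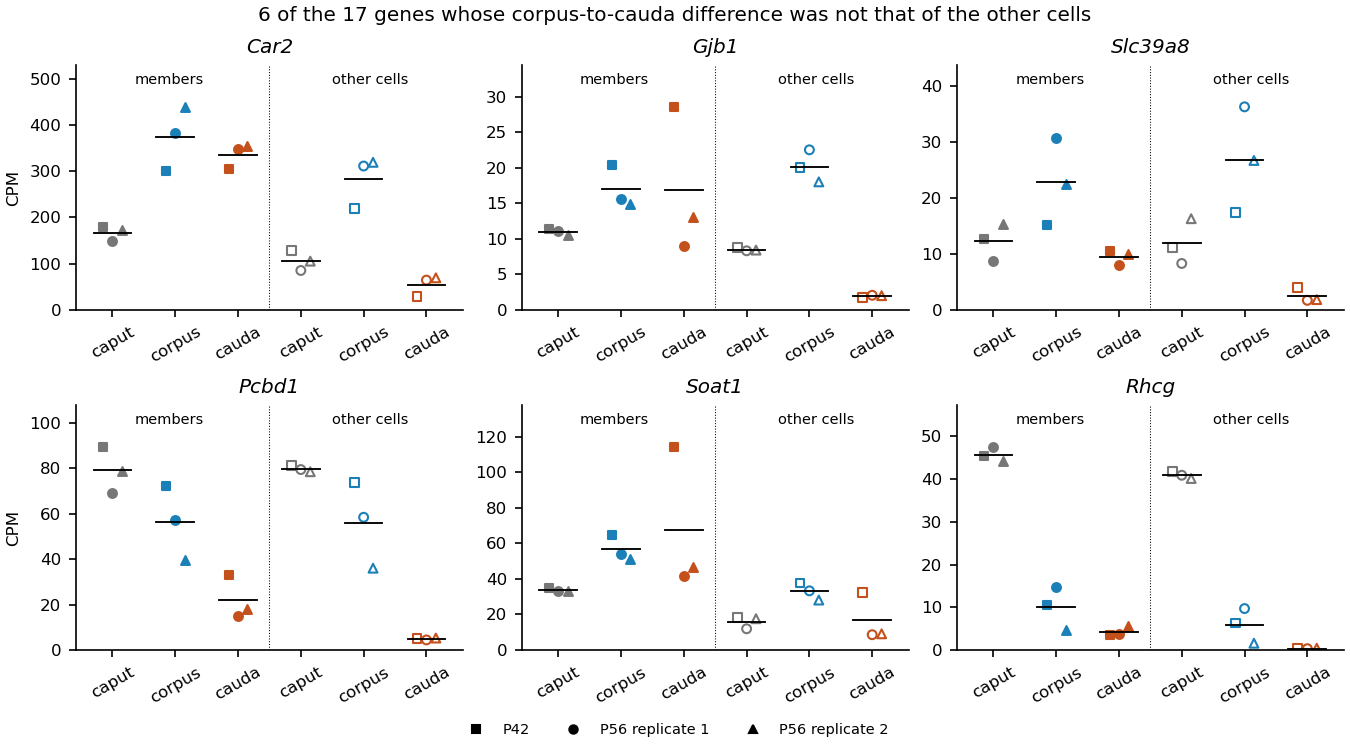
CPM of 6 of the 17 genes in members (filled) and other kept cells (open) of caput (grey), corpus (blue) and cauda (orange), 1 point per library with the mean as a line (squares P42, circles P56 replicate 1, triangles P56 replicate 2). In the cauda the other cells fall below the members in every panel, as with Car2 at 28.0 to 69.2 against 304 to 353 CPM.

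Clear-like cells of corpus and cauda together differed more from the caput cells chosen by the same rule. In the same edgeR quasi-likelihood fit 4283 of 15669 genes (27.3%) were called, 1861 (11.9%) higher and 2422 (15.5%) lower in corpus and cauda, 2766 of them with a log2 fold change of at least 1. Of the 4283, 3848 (89.8%) had the same direction in the other cells of all 3 pools. The count was 2162 without the caput of P56 replicate 1 and 2484 without the caput of P56 replicate 2. All 24 principal cell markers were called, 7 higher and 17 lower, so that the segment's principal cell transcripts changed in the members as well. Setting the TMM factors to 1 moved the median of all genes from -0.01 to -0.15 on the log2 scale, and with it 12 of 19 glycolytic and 6 of 42 lysosomal genes were higher, with 2 and 1 lower.

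Mitochondrial and glycolytic transcripts were higher in corpus and cauda. Of 10 mitochondrial mRNAs, 8 were higher and none lower (median log2 fold change 1.20), and both mitochondrial rRNAs were higher. mt-Nd3, a subunit of complex I, had 79.6, 94.6 and 96.2 CPM in the caput, 185, 311 and 234 CPM in the corpus and 229, 265 and 171 CPM in the cauda (log2 fold change 1.45, SE 0.17, adjusted p = 0.00022). All 6 distal libraries exceeded the 3 of the caput. The other cells moved likewise, with 15651 to 20601 CPM of these mRNAs summed in the caput and 22889 to 50901 CPM in corpus and cauda, and the difference between members and other cells was called in 2 of the 10, both lower. Of 18 tricarboxylic acid cycle genes, 2 were higher and 1 lower (median 0.08), and of 13 genes of mitochondrial biogenesis and dynamics, 0 were called. Of 19 glycolytic genes, 14 were higher and 2 lower (median 0.70), among them Pkm, pyruvate kinase, by 1.05 (SE 0.14) and Gapdh by 1.18 (SE 0.17). Of 15 fatty acid oxidation genes, none was higher and 5 were lower, including Cpt1a, which admits fatty acids to mitochondria, by -1.04 (SE 0.18). The difference between members and other cells was called in 1 of 19 glycolytic genes (higher), 1 of the 2 mitochondrial rRNAs (lower) and none of 16 fatty acid oxidation genes. In the other cells, fatty acid oxidation genes summed to 628 to 905 CPM in the caput and 403 to 771 CPM distally. Glycolytic genes summed to 1041 to 1438 CPM and 1177 to 2729 CPM there.

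Napsa, of the lysosomal list, stood at 15.8, 17.2 and 16.5 CPM in caput members against 58.3 to 542 CPM distally (log2 fold change 3.65, SE 0.50, adjusted p = 0.0015). Of 42 lysosomal genes, 12 were higher and 1 lower, the tetraspanin Cd63 (-1.72, SE 0.15). The difference between members and other cells was called in none of these 42. Car2 was higher by 1.18 (SE 0.21, adjusted p = 0.0027) and Atp6v1c2 by 1.16 (SE 0.17, adjusted p = 0.0011), from 40.5 to 76.5 CPM in the caput to 75.95 to 182 CPM distally. Cells with none of the rule markers also had more Atp6v1c2 distally. They held 6.54, 3.49 and 4.19 CPM in the caput, 25.6, 41.0 and 39.2 CPM in the corpus and 13.0, 28.7 and 31.7 CPM in the cauda. Of the 5 tested V-ATPase isoforms limited to few tissues, Atp6v1c2 was thus higher and 1 was lower, the V1 subunit G2 (Atp6v1g2). Atp6v1g2 had 11.2 to 13.1 CPM in caput members and 1.31 to 6.94 CPM distally (log2 fold change -2.06, SE 0.25, adjusted p = 0.00030), and the other cells went from 11.6 to 13.96 CPM in the caput to 1.44 to 2.76 CPM distally. The remaining 3, Atp6v1b1, Atp6v0a4 and Atp6v0d2, did not pass the threshold, with log2 fold changes of 0.36, 0.09 and 0.24 (SE 0.14, 0.12 and 0.15). Of the 17 widely used subunits, 3 were higher and none lower. The difference between members and other cells was called in 2 of 6 isoforms limited to few tissues and 2 of 17 widely used subunits, all higher. Atp6v0d2 in cells with none of the rule markers stood at 56.6, 65.0 and 71.8 CPM in the caput. It stood at 9.16, 6.81 and 7.19 CPM in such cells of the corpus and at 13.1, 11.6 and 9.84 CPM in those of the cauda.

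The difference between members and other cells in this comparison was called in 305 of 18833 genes (1.62%), 136 of them higher (0.722%). Of the 4283 genes called against the caput, 173 also had this difference called. It ran opposite to the members' own change in 135 of them and with it in 38. Hhatl (chr9:121784016-121792507, minus strand), a homologue of hedgehog acyltransferase, had the largest difference among the genes of the naming rule given here. It met the rule's level condition through corpus and cauda only, since its caput members were near the other cells. It had 1.05, 2.23 and 0.934 CPM in caput members, 5.13, 7.90 and 13.7 CPM in the corpus and 24.3, 18.3 and 19.0 CPM in the cauda, while other cells stayed between 0.567 and 2.49 CPM in all 9 libraries (difference 3.12, adjusted p = 0.00029). Each distal library thus exceeded each caput library in the members and not in the other cells. Npnt, the matrix protein nephronectin, ran the other way, from 83.7, 43.8 and 39.6 CPM in the caput to 7.98, 3.87 and 1.31 CPM in the corpus and 14.7, 3.02 and 3.47 CPM in the cauda (log2 fold change -3.46, SE 0.20; difference -1.43, adjusted p = 0.012). Cldn10, a tight junction claudin, was lower by 1.73 (SE 0.12) from the caput. Its other cells had 178 to 212 CPM in the caput and at most 12.7 CPM distally, and its members kept 41.6 to 91.9 CPM distally (difference 2.95, SE 0.23, adjusted p = 0.0011).

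Between the ages, the P42 library of each segment was set against the 2 P56 libraries, so that the spread came from the P56 replicates and each lone P42 library was assumed to vary as they did. By edgeR's quasi-likelihood test 1170 of 17041 genes (6.87%) were called in the corpus, 646 (3.79%) higher and 524 (3.07%) lower at P56, and 3639 (21.4%) in the cauda, 2276 (13.4%) higher and 1363 (8.0%) lower. The corpus count fell to 278 and 84 without the corpus of P56 replicate 1 and 2. Genes called in both segments numbered 874, which is 74.7% of the corpus and 24.02% of the cauda calls, and 862 of them had the same direction. With TMM factors set to 1, added after the data were seen, the median of all genes moved from 0.03 to -0.50 in the corpus and from 0.10 to -0.72 in the cauda, and the calls split into 101 higher and 2710 lower in the corpus and 428 higher and 4913 lower in the cauda, so that the larger group turned from higher to lower in both. In the same libraries the fibroblast markers were lower at P56 in 6 of 7 in the corpus and in 7 of 7 in the cauda, and the macrophage markers in 3 and 5 of 7. Principal cell markers were higher at P56 in 10 of 24 in the corpus and 9 of 24 in the cauda, and none was lower, but with TMM factors set to 1 the calls were 4 higher in the corpus and 7 higher and 2 lower in the cauda. Beta-defensins were higher in 7 and 10 of 24 (1 and 8 with TMM factors set to 1). Basal cell markers were higher in the cauda in 4 of 8 (3 with TMM factors set to 1) and not called in the corpus, where 3 were lower with TMM factors set to 1. The part of these marker genes in the age differences was not tested.

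Of the genes with at least 2 times the other cells' level, a condition that a gene can pass through the age at which it is high, 21 were called in the same direction in both segments, 2 higher and 19 lower at P56. In the corpus 16 of them were called with at least 5 markers and 8 with DESeq2, which gave 3 of the others no adjusted p. TMM factors set to 1 shift all genes down, so this scaling bears on the 2 higher genes, and both were called with it. These 21 were picked after the values were seen. Napsa on the TMM scale was 46.8 at P42 against 132 and 265 at P56 in the corpus, and 89.7 against 649 and 666 in the cauda. The log2 fold changes of Napsa were 2.08 (SE 0.41, adjusted p = 0.038) and 2.87 (SE 0.44, adjusted p = 0.0056). Napsa in the corpus was not called with at least 4 or 5 markers, or without the cauda of either P56 replicate. The ribonuclease Rnase1 went from 15.9 to 140 and 197 TMM-scaled CPM in the corpus and from 38.8 to 167 and 147 in the cauda (log2 fold changes 3.41, SE 0.27, and 2.01, SE 0.27).

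Among the 19 genes lower at P56 were a receptor and several regulators. Kit had 36.6 TMM-scaled CPM at P42 against 16.7 and 17.7 at P56 in the corpus, and 41.7 against 16.4 and 16.8 in the cauda (log2 fold changes -1.09, SE 0.17, adjusted p = 0.011, and -1.32, SE 0.20, adjusted p = 0.0013). Lef1, a transcription factor of the Wnt pathway, had 31.6 against 14.2 and 14.3, and 48.6 against 14.3 and 14.4 (log2 fold changes -1.15, SE 0.18, and -1.76, SE 0.20). Sp5, a Wnt target, was lower by 1.38 (SE 0.25) and 2.06 (SE 0.29). In Kit, Lef1 and Sp5 the P42 library stood above each P56 library of its segment. Whether these age changes differed from those of the other cells was not tested. Without the corpus of P56 replicate 2 none of these 3 was called in the corpus, nor was Kit without the corpus of P56 replicate 1.

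The V-ATPase isoforms limited to few tissues were not called between the ages in either segment (0 of 6), but with TMM factors set to 1 the cauda had 4 lower at P56 and the corpus 1. Of the 17 widely used subunits, 7 were higher at P56 in the cauda with a median of 0.39, but with TMM factors set to 1 none was higher and 8 were lower with a median of -0.52, so no direction is given. Of 22 cholesterol synthesis genes, 16 were higher in the cauda at P56 and none lower (median 1.71), 12 with at least 5 markers and 10 with TMM factors set to 1. The summed level of the 22 in the cauda was 738 CPM at P42 against 1349 and 1752 CPM at P56 in members, and 429 against 1488 and 1991 CPM in the other kept cells, so it was higher at P56 in both. Whether the age change differed between members and other cells was not tested. Fdft1, squalene synthase, went from 61.9 to 198 and 246 TMM-scaled CPM in the cauda (log2 fold change 1.84, SE 0.21, adjusted p = 0.00032), and Msmo1, a sterol methyl oxidase, from 50.4 to 299 and 357 (log2 fold change 2.70, SE 0.32, adjusted p = 0.00071). In the corpus, 4 of the 22 were higher. Fdft1 had a log2 fold change of 0.54 there (SE 0.19, adjusted p = 0.11), which was -0.0095 with TMM factors set to 1.

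Antigen presentation genes split. B2m, the light chain of MHC class I, went from 2493 to 5162 and 6232 TMM-scaled CPM in the corpus and from 2223 to 10385 and 10954 in the cauda (log2 fold changes 1.19, SE 0.19, and 2.26, SE 0.21). H2-Ab1, an MHC class II chain, went from 159 to 43.6 and 52.6 in the corpus and from 181 to 21.7 and 27.2 in the cauda (log2 fold changes -1.72, SE 0.19, and -2.88, SE 0.21). Of 15 genes on the list, 2 were higher and 7 lower in the cauda, and with at least 5 markers 2 were higher and 2 lower. Macrophage markers summed to 1290 CPM in the members of the P42 cauda against 94.4 and 134 CPM at P56. Their part in the change of the MHC class II genes was not tested.

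The age difference itself differed between cauda and corpus in 70 of 17041 genes (0.411%), 51 of them higher (0.299%), in the fit without a block. With the pool of mice as a replicate block, added after seeing the data, 557 were called, 363 higher and 194 lower, among them all 70. Mmp7, a matrix metalloproteinase, had 12.2 TMM-scaled CPM at P42 against 12.3 and 15.1 at P56 in the corpus, and 8.68 against 169 and 155 in the cauda (difference 4.04, SE 0.33, adjusted p = 0.0022). Vegfb, a vascular growth factor, had 16.2 against 36.3 and 43.0 in the corpus and 45.7 against 15.1 and 16.2 in the cauda (difference -2.84, SE 0.33, adjusted p = 0.0088). The change of Mmp7 was thus seen in the cauda and that of Vegfb was opposite in the 2 segments. By the rule of the largest change shared by both segments, Col3a1, Car3, Itgb7, Dok2 and Gpr153 were higher at P42 and Slc26a7, Ffar4, Pate4, Gm43841 and Gm37273 at P56. Col3a1, a fibroblast collagen, had 616 TMM-scaled CPM at P42 against 56.1 and 43.2 in the corpus and 2922 against 271 and 144 in the cauda. Slc26a7, a chloride-bicarbonate exchanger, had 0 UMIs in the P42 corpus and cauda and 6, 12, 42 and 53 UMIs in their P56 libraries. The members of the P42 cauda held 1153123 UMIs in all, against 9939522 and 11807678 in the P56 cauda. Caput members had 17 UMIs of Slc26a7 at P42 and 18 and 22 at P56. Car3, a muscle and fat carbonic anhydrase, had 33 and 60 UMIs in the P42 corpus and cauda and 0 in their P56 libraries. Caput members had 1 UMI of Car3 at P42 and 0 and 4 at P56.

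**Figure D5:**
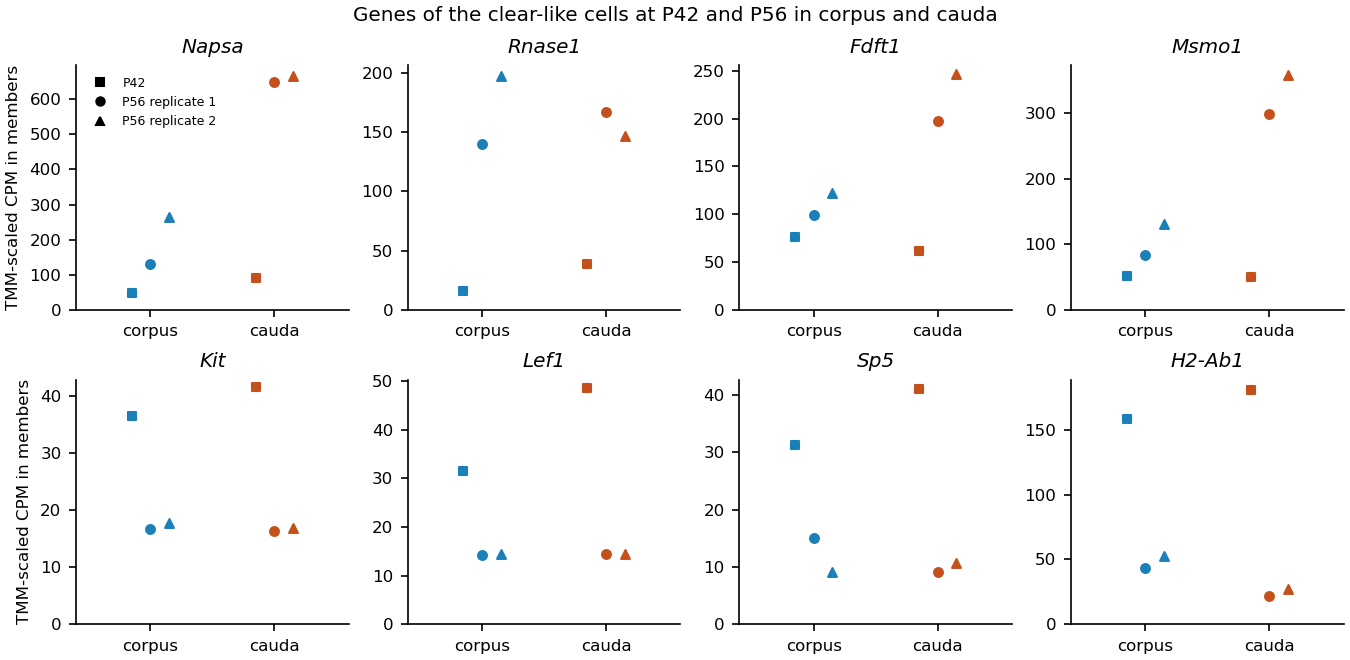
TMM-scaled CPM in the clear-like cells of corpus (blue) and cauda (orange) for 8 genes, 1 point per library (squares P42, circles P56 replicate 1, triangles P56 replicate 2). Napsa and Rnase1 are higher at P56 in both segments and Kit, Lef1, Sp5 and H2-Ab1 are higher at P42, with Kit at 36.6 against 16.7 and 17.7 in the corpus, while Fdft1 and Msmo1 separate most in the cauda.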

How the data were processed

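Per the labels and the study's methods, the authors assigned cell barcodes and collapsed UMIs with UMI-tools, mapped reads with STAR 2.7.3a to GRCm38.p6, and deposited raw UMI counts per gene and barcode, without normalization, for 32195 genes. Libraries held 23114756 to 50655384 UMIs, of 307987941 in all. Columns were tied to samples by segment and replicate. Scripts in Python 3.11.15, with pandas 2.3.3, numpy 2.4.6 and scipy 1.17.1, chose the members and summed their 42016912 UMIs per library. R 4.3.3 with edgeR 4.0.16 tested the sums of all 9 libraries (filterByExpr, TMM scaling, quasi-likelihood test, Benjamini-Hochberg adjustment, threshold 0.05), and DESeq2 1.42.0 was an alternative. The scripts were tested on simulated data. The 11 rule genes were left out of all counts of called genes. Segment fits held the pool as a block, because caput, corpus and cauda were taken from 1 set of mice per pool. Deviations from the segment means correlated by 0.168 to 0.558 in all same-pool pairs, and by 0.051 to 0.351 in pairs across the P56 pools. Pairs of a P42 and a P56 library had correlations of -0.496 to -0.130. The segment means hold both ages, so these correlations cannot tell pool from age. Age fits had a mean for each segment and age and no block. TMM-scaled CPM are CPM after division by the TMM factor. Doublets were not called. The limits on UMIs, genes and other markers were the only guard against them. Those markers cover no principal cells, sperm, T cells or erythrocytes, so doublets with these can remain. Intervals cover counting error only. Figures were drawn with matplotlib 3.10.9.

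The members, gene lists and comparisons were chosen with earlier results of these data known. Genes were named as members of the lists (those with the smallest adjusted p or an explained role) and by rule, namely the 10 with the largest fitted change in each direction among genes called, changed the same way in all pools, with a called difference from the other cells and at least 2 times their level; the 5 in each direction with the largest change shared by both segments between the ages; and the 25 with the largest lowest ratio to other cells. Alternatives covered size factors, filters, marker limits, depth, the block and each library left out. The limit of at least 5 markers, the P56 pools only, TMM factors set to 1 and a block for the age difference between segments were added after seeing the data.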

Additional observations from a re-analysis of the deposited data

Results flagged for a closer look

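In these results an effect differed between groups by a test of the difference itself (edgeR's quasi-likelihood test, Benjamini-Hochberg adjustment), and values are log2 differences. The change from caput to corpus and cauda was larger in clear-like cells than in the other cells of the same libraries for Hhatl (3.12), Ripply3 (2.26), Gm13605 (2.14), Dnah11 (1.88), Lrrc27 (1.24), Alox12 (1.05), Hpn (1.04), Id4 (0.99), Gpcpd1 (0.96) and Pmm1 (0.73), and lower for Npnt (-1.43). In both directions, the genes considered had at least 2 times the other cells' mean level over the 9 libraries. Hhatl and Id4 passed this condition through the segments in which they were high. Before such conditions, the difference was called higher in 136 genes and lower in 169, so Npnt is not the sole lower gene. Of the higher genes, 13 met the conditions and the 10 with the largest change are given.

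The change from corpus to cauda was higher in clear-like cells than in other cells for Jchain (4.43), Gm44785 (3.18), Gjb1 (3.01), Rhcg (2.75), Slc39a8 (2.33), Car2 (2.23), Ybx2 (2.13), Pcbd1 (1.87), Srd5a1 (1.49), Soat1 (1.31), Retreg1 (0.75) and Bloc1s2 (0.67). It was lower for Clec10a (-1.93), Klk1b27 (-1.28), Nfkb2 (-1.14), Bhlhe40 (-0.75) and Gm2830 (-0.73). With TMM factors set to 1, Ybx2, Clec10a, Klk1b27, Nfkb2 and Bhlhe40 were no longer called. Of these 17, 13 were also called with at least 5 markers and 15 with the P56 pools only.

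The change from P42 to P56 in clear-like cells was higher in the cauda than in the corpus for Mmp7 (4.04), Clca3a2 (3.24) and Lcn2 (3.18), and lower for Vegfb (-2.84). Lcn2, an iron-sequestering lipocalin, had 159 TMM-scaled CPM at P42 against 156 and 121 at P56 in the corpus, and 42.8 against 370 and 311 in the cauda.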

How the results depend on the processing

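Counts of called genes and the share of higher genes depended on the setting. For cauda against corpus the count of 1183 was 2403 with no filter on low counts, 682 with at least 5 markers, 3157 with the P56 pools only and 263 to 2392 with a library left out. Its split of 444 higher and 739 lower became 1181 and 1211 without the P42 cauda and 1505 and 1652 with the P56 pools only. It was 150 and 506 without the corpus of P56 replicate 2. Without the pool of mice as a replicate block the count was 507, over 14750 genes tested in place of 15669. For corpus and cauda against caput the count of 4283 was 2766 at a log2 fold change of at least 1 and 2162 to 5721 with a library left out, and TMM factors set to 1 changed the split of 1861 higher and 2422 lower to 1349 and 2818. For age in the corpus the count of 1170 was 709 at a log2 fold change of at least 1, 694 with DESeq2, 2811 with TMM factors set to 1 (101 higher), 2243 with no filter, 611 and 493 with at least 4 and 5 markers, and 84 to 1470.0 with a library left out. For age in the cauda the count of 3639 was 2174 with DESeq2, 1960.0 with at least 5 markers and 2693 to 3656 with a library left out, and 5341 with TMM factors set to 1 (428 higher). For the age difference of cauda minus corpus the count of 70 was 557 with the pool as replicate block. For the difference between members and other cells the count of 17 was 57 with DESeq2, 234 with no filter, 34 and 30 with at least 4 and 5 markers, 31 without the deepest members, 209 with the P56 pools only, 2 with the pool as replicate block and 7 to 98 with a library left out. The causes were not tested.

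The share of members, -5.19 points, ran from -9.17 to 1.87 with a pool left out, and the MT difference, -4.70 points, from -6.06 to -2.59. With TMM factors set to 1, the age change in the corpus reversed for Fdft1 (-0.0095) and Sqle (-0.28), and that in the cauda for Atp6v1d (-0.087). Of the values for single genes under the alternatives, 2729 kept their direction and side of the threshold, 376 lost and 31 gained the call, and 3 reversed.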
